A study of Mus musculus with 4 samples.

Results

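The spectrins and ankyrins were examined in primary liver sinusoidal endothelial cells (LSECs), the fenestrated endothelium that lines the liver sinusoids. The group holds 7 of the 18373 genes of the deposited table, taken by symbol: the spectrin genes Sptan1, Sptbn1, Sptbn4 and Sptb and the ankyrin genes Ank3, Ank1 and Ank2. It was chosen because Sptbn4 was picked from these data as a large increase after the siRNA against Airn, so the Sptbn4 values in that contrast are a description and carry no test. The cells came from livers of 8-week-old Balb/c mice. The labels name perfusion with pronase and collagenase, while the methods name collagenase, a Nycodenz gradient and magnetic beads against the endothelial protein CD146. The cells were kept on collagen-coated plates, and were transfected for 48 h with a control siRNA (NC, 2 libraries) or with siAirn (2 libraries). The labels place the cells at day 3 and give no transgene, deletion or other agent in either group. Airn is a long noncoding RNA. Both siAirn libraries carry the name siAirn1 in their titles, while the treatment text speaks of 2 separate siAirn, so which siRNA a library received is not settled here. The labels call the libraries biological replicates and do not say whether they came from separate mice or cultures, so p-values measure only the spread between these libraries.

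Spectrins are long rods of repeated helical bundles. An alpha and a beta chain pair side by side, and pairs join head to head into tetramers that tie short actin filaments into a lattice under the plasma membrane. Ankyrins are adaptors: they bind the beta chain on one side and the cytoplasmic tails of channels, pumps and adhesion receptors on the other. The lattice was first worked out in red cells, which use the Sptb and Ank1 products, while most other cells rely on the Sptan1 and Sptbn1 products. Sptbn4 encodes beta-IV spectrin, best known from the axon initial segment and the node of Ranvier, where it is held by ankyrin-G, the product of Ank3.

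The libraries held 17308382 and 18371959 counts in NC and 17766188 and 17545853 in siAirn. Airn itself was counted 7 and 3 times in the NC libraries and 11 and 9 times in those labelled siAirn. The target was thus not lower there at this depth, and every direction below follows the labels. The paper reports that siAirn-1 and siAirn-2 knocked Airn down efficiently, which these low counts do not show. Cells of the labelled type were present, since all 10 LSEC markers, such as Stab2, Lyve1 and Clec4g, were detected and their summed level was 4194 to 4276 CPM (counts per 1e6 counts of the TMM-scaled library total) in NC and 2849 to 3190 CPM in siAirn. Of these 10 markers 8 fell and 0 rose at an adjusted p under 0.05, where 16.8% of all genes tested were called in either direction, but 1 was called without NC replicate 1 and 0 without NC replicate 2 (9 at an unadjusted p by edgeR). Of 10 pan-endothelial markers, such as Cdh5 and Pecam1, 6 fell, and their sum was 10242 and 9748 CPM in NC and 7331 and 6412 CPM in siAirn. Of these, 1 was called without NC replicate 1 and 0 without NC replicate 2 (6 at an unadjusted p by edgeR in each). In bulk RNA, fewer cells of a type and less RNA per cell cannot be told apart. The counts of siAirn and NC were compared for each gene by the quasi-likelihood test of edgeR, with p adjusted by Benjamini-Hochberg over the 13628 genes tested.

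Promoters are shown for the 2 most abundant members (Sptan1, Sptbn1), for the member behind the choice (Sptbn4) and for the member at or near 0 (Sptb). RefSeq sequences on GRCm38.p6 were matched by symbol for 5 of the 7 members and run from 250 bases before to 50 bases after a transcription start. For Sptbn4 the most upstream of 4 starts is given, and for Sptbn1 the start of the longest GENCODE M21 transcript. Capitals mark GC boxes (GGGCGG or CCGCCC) and CACCC boxes (CACCC or GGGTG), each searched on both strands.
Sptan1, chr2:29965310-29965609, plus strand: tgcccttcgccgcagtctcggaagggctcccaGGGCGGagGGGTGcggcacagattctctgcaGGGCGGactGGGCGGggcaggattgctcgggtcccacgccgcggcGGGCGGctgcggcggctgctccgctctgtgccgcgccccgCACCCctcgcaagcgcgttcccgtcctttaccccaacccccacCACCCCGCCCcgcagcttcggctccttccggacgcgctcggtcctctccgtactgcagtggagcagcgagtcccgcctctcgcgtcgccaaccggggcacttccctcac
Sptbn1, chr11:30198208-30198507, minus strand: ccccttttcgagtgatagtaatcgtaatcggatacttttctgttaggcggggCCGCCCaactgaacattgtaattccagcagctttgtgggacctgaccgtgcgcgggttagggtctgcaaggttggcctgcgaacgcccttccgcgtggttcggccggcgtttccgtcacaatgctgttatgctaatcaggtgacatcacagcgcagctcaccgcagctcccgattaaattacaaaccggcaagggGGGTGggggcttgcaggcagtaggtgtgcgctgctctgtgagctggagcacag
Sptbn4, chr7:27446540-27446839, minus strand: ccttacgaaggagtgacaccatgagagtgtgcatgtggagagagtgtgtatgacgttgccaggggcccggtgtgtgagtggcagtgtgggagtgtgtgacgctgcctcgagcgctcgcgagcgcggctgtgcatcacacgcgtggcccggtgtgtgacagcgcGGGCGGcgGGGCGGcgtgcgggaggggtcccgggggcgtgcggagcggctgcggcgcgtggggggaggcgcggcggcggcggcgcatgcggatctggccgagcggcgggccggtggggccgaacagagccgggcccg
Sptb, chr12:76710498-76710797, minus strand: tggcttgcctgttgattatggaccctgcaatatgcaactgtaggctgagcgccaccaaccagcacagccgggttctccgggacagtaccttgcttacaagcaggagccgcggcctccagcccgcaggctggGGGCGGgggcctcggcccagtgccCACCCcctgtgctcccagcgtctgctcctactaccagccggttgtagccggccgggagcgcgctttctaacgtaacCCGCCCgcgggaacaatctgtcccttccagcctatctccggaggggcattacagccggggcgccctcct

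The Sptbn4 window was as rich in G and C as that of Sptan1, 73.7% against 73.3%, beside a median of 52.7% over the 32851 promoters of the table. It held 41 CpG dinucleotides, against 37 for Sptan1 and 21 each for Sptbn1 and Sptb. The Sptan1 window held 5 GC boxes and 3 CACCC boxes, a pair of which share 1 base. The Sptbn4 window held 2 GC boxes and 0 CACCC boxes. Sptbn1 had 1 of each, and Sptb had 2 GC boxes and 1 CACCC box. A GC box lay in 35.7% of all promoters and a CACCC box in 57.5%, so the matches describe these windows and single out none of the genes.

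Sptan1 and Sptbn1 were the most abundant spectrins in every library. Sptan1 (gene ID 20740; chr2:29965560-30031451, plus strand, GRCm38) encodes alpha-II spectrin, the alpha chain of non-erythroid cells. Its level was 81.0 and 77.8 FPKM (fragments per kilobase of transcript, scaled to library size) in NC and 88.5 and 78.9 FPKM in siAirn, and the groups overlapped. The mean was 79.4 ± 2.26 FPKM in NC and 83.7 ± 6.79 FPKM in siAirn (SD, n = 2 each). From 10907 and 11122 counts in NC and 12252 and 10776 in siAirn, the log2 fold change was 0.04 with a 95% confidence interval of -0.13 to 0.21 (SE 0.07, adjusted p = 0.726).

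Sptbn1 (gene ID 20742; chr11:30099395-30268175, minus strand) encodes beta-II spectrin, the widely expressed beta chain and partner of alpha-II spectrin. Its level was 68.8 and 61.7 FPKM in NC and 79.8 and 73.3 FPKM in siAirn, so both siAirn libraries lay above both NC libraries. The counts were 10013 and 9526 in NC and 11957 and 10841 in siAirn. The log2 fold change of 0.20 (SE 0.08, 95% confidence interval 0.02 to 0.38) did not pass the test after adjustment (adjusted p = 0.116). The ratio of Sptan1 to Sptbn1 FPKM was 1.18 and 1.26 in NC and 1.11 and 1.08 in siAirn. The RNAs of the 2 chains thus stayed close to equal per length in every library. In NC both Sptan1 values exceeded both Sptbn1 values, while in siAirn the ranges of the 2 genes overlapped.

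Sptbn4 (gene ID 80297; chr7:27356383-27447686, minus strand) stood at a far lower level than Sptan1 and Sptbn1, and was chosen for its difference between the groups. It had 69.0 and 64.5 estimated counts in NC, against 155.8 and 344.9 in siAirn. In CPM these were 4.02 and 3.56 in NC and 8.62 and 19.5 in siAirn. Both siAirn libraries lay above both NC libraries, and the siAirn libraries differed from each other by 2.26-fold, more than siAirn replicate 1 differed from the higher NC library (2.14-fold). The fitted log2 fold change was 1.89, falling to 1.19 without siAirn replicate 2 and reaching 2.36 without siAirn replicate 1. Since the groups did not overlap, leaving out 1 library could not turn the direction, and the size depended on siAirn replicate 2. This is the contrast from which the gene was chosen, so nothing is read from the direction or the size of its change.

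**Figure D1:**
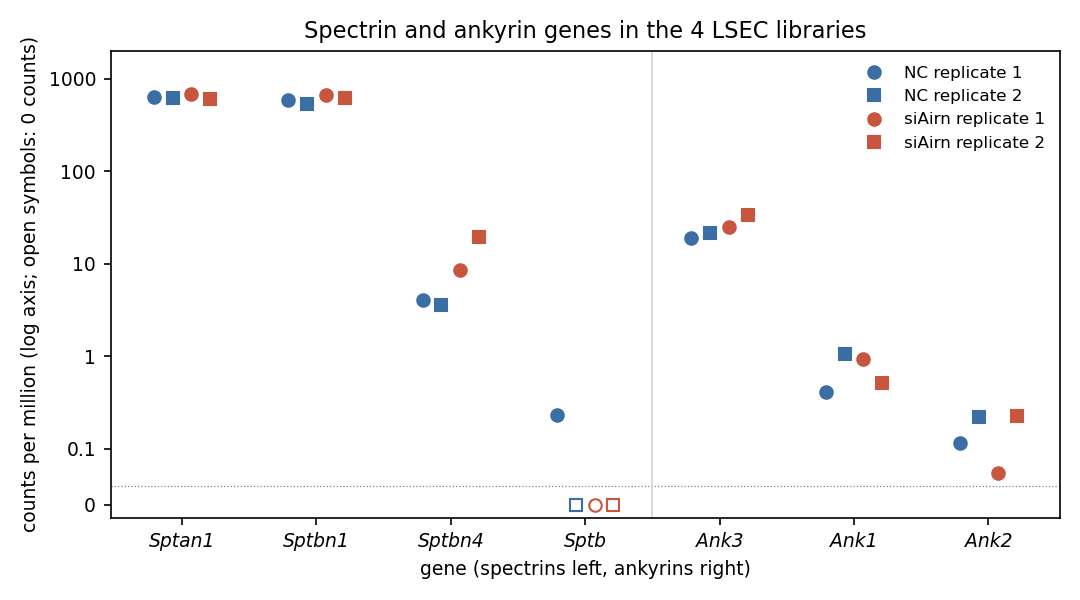
CPM of each member (horizontal axis) in each library on a log axis, circles for replicate 1 and squares for replicate 2, NC in blue and siAirn in red, with open symbols for 0 counts. Sptan1 and Sptbn1 sit highest in every library, Sptbn4 goes from 3.56 to 4.02 CPM in NC to 8.62 and 19.5 CPM in siAirn, and Sptb has counts in NC replicate 1 only.

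The deposited Sptbn4 numbers imply a short length for the gene. A count divided by its FPKM gives the length over which the authors' program spread the reads. For Sptbn4 this length was 938 to 1044 bases in the 4 libraries, or 963 bases over all of them. The longest Sptbn4 transcript in GENCODE M21 has 8747 bases, so the implied length was 11.0% of it. Among 12266 genes with at least 1 CPM and an M21 model, the median was 89.7% (interquartile range 72.8% to 96.1%), and 0.179% of genes were at or below the Sptbn4 value. M21 lists 7 Sptbn4 transcripts, 2 of which are shorter than the implied length, with 369 and 493 bases, and the shortest of the others has 4724 bases. Whether the implied length stands for 1 short transcript or for a mix of short and long ones was not tested. The transcript set that the authors counted against is not given in the sources used here.

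The other well-counted members did not share this. The implied length was 7782 bases for Sptan1 against a longest M21 transcript of 8018, 8420 against 9107 for Sptbn1 and 9083 against 9963 for Ank3. Counts of these 3 genes were whole numbers in all 4 libraries, whereas no Sptbn4 count was whole. RSEM gives such values where reads are shared with another gene. Of the exonic bases of Sptbn4, 3.94% lie under exons of Gm20479 on the same strand or Gm44924 on the opposite strand, and 2.46% of the 50-base windows of its transcripts recur in another gene. Neither gene was found by name in the deposited table, and the use of strand in counting is not given in the sources used here. These shares hold for the M21 models only, and how much of the Sptbn4 count was shared with other genes is not known.

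**Figure D2:**
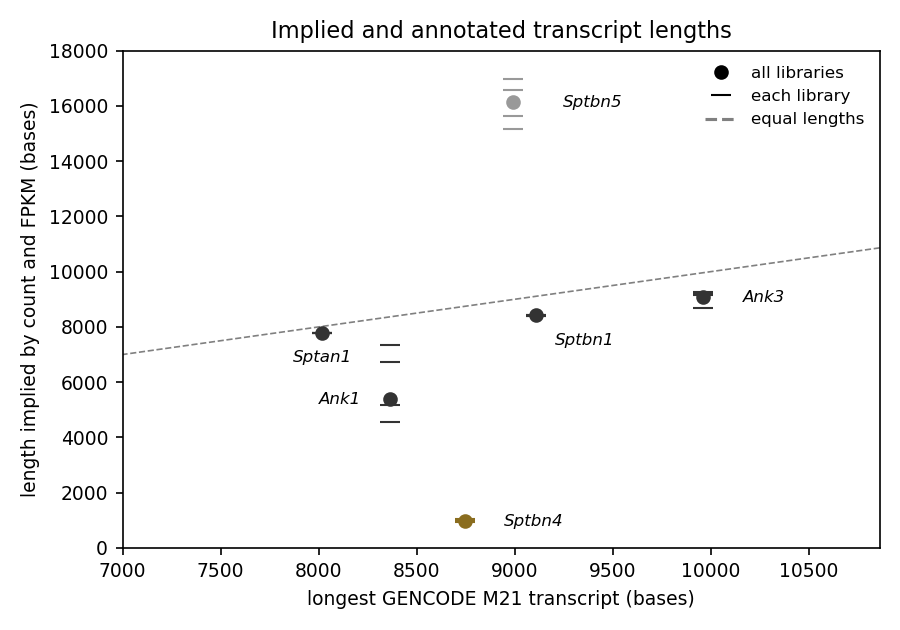
Length implied by count and FPKM (vertical axis, bases) against the longest GENCODE M21 transcript (horizontal axis, bases) for the spectrins and ankyrins with over 50 counts in all, with dots for all libraries together, dashes for each library and a broken line of equal lengths. Sptbn4 lies at 963 bases against 8747, while Sptan1, Sptbn1 and Ank3 lie within 10% of the line.

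Neither neighbour of Sptbn4 passed the test. Shkbp1, 363 bases beyond its end on the same strand, had 34.8 and 32.5 CPM in NC and 29.8 and 30.4 CPM in siAirn (log2 fold change -0.16, SE 0.08, adjusted p = 0.217). Blvrb, which encodes biliverdin reductase B, starts 291 bases from Sptbn4 on the opposite strand and had 52.1 and 59.9 CPM in NC and 62.5 and 64.8 CPM in siAirn (log2 fold change 0.18, SE 0.08, adjusted p = 0.173). The genes whose values over the 4 libraries were most like those of Sptbn4 were Zbed6, Lyzl1, Htr2a, Gm46310 and Abcc2, with a root mean square difference of 0.19 to 0.35 in centred log2(CPM + 0.5). Htr2a, a serotonin receptor gene, had 16.0 and 19.0 CPM in NC and 35.1 and 49.0 CPM in siAirn. Abcc2, a hepatocyte export pump gene, had 28.0 and 30.6 CPM in NC and 63.0 and 80.6 CPM in siAirn. Likeness over 4 libraries is a description of their order and spacing.

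Sptb (gene ID 20741; chr12:76580488-76710547, minus strand), the beta chain of the red cell, had 4 counts in NC replicate 1 and 0 in the other 3 libraries. A count of 0 allows up to 3 counts, or 0.166 to 0.170 CPM in those libraries, for counting error only. The erythroid markers were low: 5 of the 10 taken were found by name, and their summed level was 0.499 and 0.668 CPM in NC and 1.18 and 1.08 CPM in siAirn, most of it Alas2, the heme synthesis enzyme of red cells. Alas2, the only one tested, had 0.324 and 0.337 CPM in NC and 0.686 and 0.684 CPM in siAirn (log2 fold change 0.96, SE 0.50, adjusted p = 0.220). Hba-a2 was at 0 but for 4 counts in siAirn replicate 1, and Rhag but for 1 count in siAirn replicate 2.

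Sptbn5, which is no member, is named after the giant beta-V spectrin. It had 47.3 and 53.0 estimated counts in NC, against 47.1 and 27.4 in siAirn, a log2 fold change of -0.46 (SE 0.32, adjusted p = 0.361). It did not pass the test, by edgeR at an unadjusted p or by DESeq2. M21 lists both Sptbn5 models, of 2668 and 8994 bases, as processed transcripts and not as protein-coding ones. The implied length of Sptbn5 was 16141 bases, 179% of its longest M21 transcript of 8994 bases. Its counts were not whole either, so its level per length is uncertain. The difference between its fold change and those of the other spectrins was not tested.

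**Figure D3:**
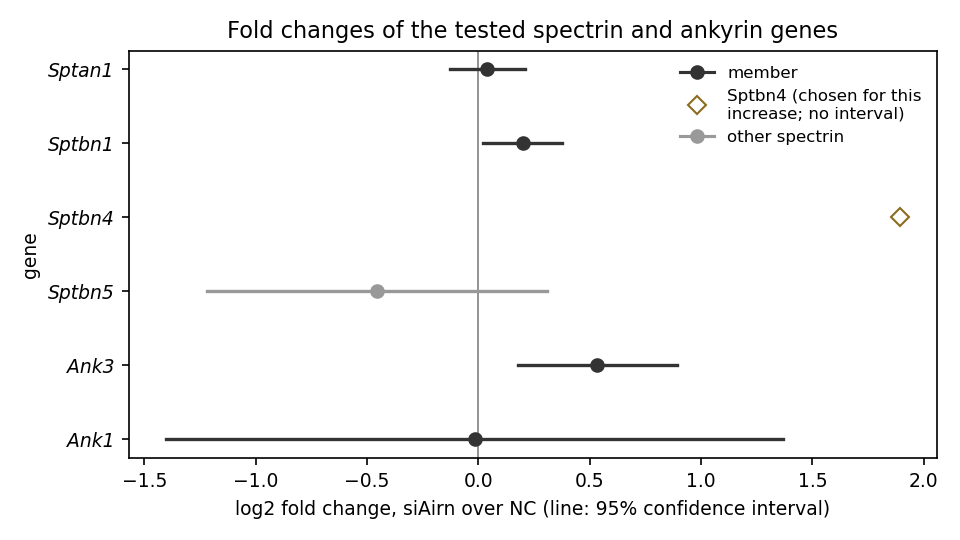
Log2 fold change of siAirn over NC (horizontal axis) with its 95% confidence interval for the tested members (black) and Sptbn5 (grey), and Sptbn4 as an open diamond without an interval because it was chosen for this increase. Ank3 at 0.53 and Sptbn1 at 0.20 have intervals above 0, while those of Sptan1, Sptbn5 and Ank1 cross 0, and no black or grey point has an adjusted p under 0.05.

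Per length, Sptbn1 held most of the beta-spectrin RNA. Shares were taken over 4 beta-spectrin genes, Sptbn1, Sptbn4, Sptbn5 and Sptb. By FPKM Sptbn1 made up 94.3% and 94.6% of their sum in NC, and 89.6% and 77.7% in siAirn. Sptbn4 made up 5.36% and 5.15% in NC and 10.2% and 22.2% in siAirn, and Sptbn5 made up 0.106% to 0.260%. These shares inherit the short implied length of Sptbn4 and the long one of Sptbn5. Per kilobase of the longest M21 transcript, an alternative chosen after seeing the data, Sptbn4 made up 0.708% and 0.696% in NC and 1.33% and 3.20% in siAirn, and Sptbn5 0.248% to 0.557%. On either scale Sptbn1 lay above Sptbn4 in every library.

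**Figure D4:**
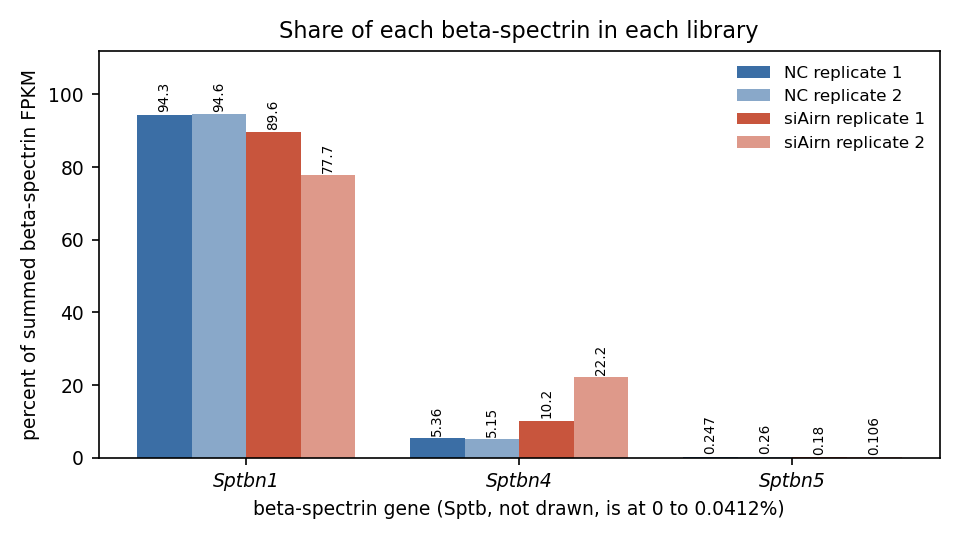
Percent of the summed FPKM of 4 beta-spectrin genes (vertical axis) held by each gene in each library, NC in blue and siAirn in red, with the paler bars for replicate 2. Sptbn1 goes from 94.3% and 94.6% in NC to 89.6% and 77.7% in siAirn, and Sptbn4 from 5.36% and 5.15% to 10.2% and 22.2%.

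Among the ankyrins, Ank3 was the gene in use. Ank3 (gene ID 11735; chr10:69398773-70027438, plus strand) encodes ankyrin-G, which holds sodium channels at the axon initial segment and E-cadherin at epithelial lateral membranes. It had 324 and 391 counts in NC, against 455 and 593 in siAirn, or 2.04 and 2.45 FPKM against 2.76 and 3.69 FPKM. Both siAirn libraries lay above both NC libraries, with siAirn replicate 2 the highest. The log2 fold change was 0.53 (SE 0.15, 95% confidence interval 0.18 to 0.89), with an adjusted p of 0.0540, so the increase narrowly missed the test. The adjusted p ranged from 0.00105 to 0.33 over 13 alternatives, and 4 of them were under 0.05. Without siAirn replicate 2 the log2 fold change was 0.31, and without siAirn replicate 1 it was 0.72.

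Ank1 (gene ID 11733; chr8:22974844-23150497, plus strand), the ankyrin-R of red cells, had 7 and 19 counts in NC, against 17 and 9 in siAirn. The groups overlapped, and the log2 fold change of -0.02 had a 95% confidence interval of -1.40 to 1.37 (SE 0.59, adjusted p = 0.988), an interval that spans more than 2-fold either way at this depth. Ank2 (gene ID 109676; chr3:126921612-127499350, minus strand), the ankyrin-B that places ion pumps and exchangers in heart and brain, had 2 and 4 counts in NC, against 1 and 4 in siAirn. The ratio of siAirn to NC was 0.842 (exact 95% interval 0.203 to 3.31, counting error only). Ank2 and Sptb did not pass the filter on low counts and were not tested. By FPKM, Ank3 made up 91.4% to 97.1% of the summed ankyrins in the 4 libraries.

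Per length, the order of the members in NC was Sptan1, Sptbn1, Sptbn4, Ank3, Ank1 and then Ank2 with Sptb. The ranges of Ank1 (0.06 and 0.2 FPKM), Ank2 (0.01 and 0.03 FPKM) and Sptb (0.03 and 0 FPKM) did not overlap between Ank1 and the other 2, while those of Ank2 and Sptb overlapped. In siAirn the order of the means was the same. The place of Sptbn4 above Ank3 (3.91 and 3.36 FPKM against 2.04 and 2.45 FPKM in NC) again rests on its implied length: per kilobase of the longest transcript, Sptbn4 had 0.460 and 0.407 CPM and Ank3 1.90 and 2.17 CPM. Both genes are used by neurons, whose markers were low here: 12 of the 13 were found by name, their summed level was 6.30 and 5.03 CPM in NC and 3.04 and 3.46 CPM in siAirn, and Syt1 and Sox10 were at 0 in siAirn.

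Of the 4 tested members other than Sptbn4, 0 passed edgeR's test at an adjusted p under 0.05, against 16.8% of all genes tested. At an unadjusted p under 0.05 there were 2, Sptbn1 and Ank3, against 34% of all genes tested. By DESeq2 there was 1 of the 3 members given an adjusted p, Ank3, against 15.1% of the genes it gave an adjusted p. By the study's threshold of a fold change over 1.4 with p under 0.05, 1 of the 4 passed, Ank3, against 9.96% of all genes. In 2 of the 4, Sptbn1 and Ank3, the groups did not overlap, against 62.7% of all genes, so the absence of overlap is no mark of these genes.

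Fold changes in these libraries ran with transcript length, and 3 members are among the longest genes. With the tested genes split into deciles by implied length, the median log2 fold change went from -0.20 in the shortest decile to 0.25 in the longest, where 80.4% of genes were higher in siAirn. Sptan1, Sptbn1 and Ank3 fell in the longest decile. Within it, 22.9% of genes lay below Sptan1, 41.9% below Sptbn1 and 83.9% below Ank3, so Sptan1 and Sptbn1 were under the median of genes of their length and Ank3 was above it. With a correction for length the log2 fold changes were -0.20 for Sptan1, -0.055 for Sptbn1 and 0.27 for Ank3, and with GC content and length -0.13, -0.069 and 0.26. The signs of Sptan1 and Sptbn1 turned under both, and none of the 3 had an adjusted p under 0.05 (0.109 to 0.616). Sptbn4, by its implied length in the shortest decile, went to 2.05 and 2.18.

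**Figure D5:**
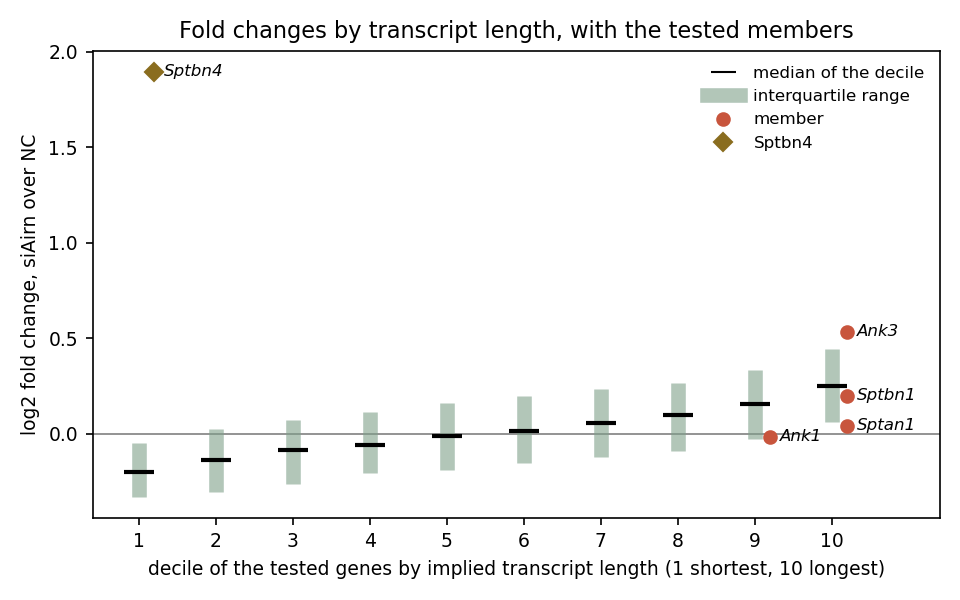
Log2 fold change of siAirn over NC (vertical axis) by decile of the tested genes in order of implied transcript length (horizontal axis), with black marks for medians, green bars for the interquartile range and points for the tested members. The medians run from -0.20 to 0.25, Ank3 lies above the bar of its decile, Sptbn1 inside it and Sptan1 below it.

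Markers of other cell types were also measured. The summed hepatocyte markers were 590 and 750 CPM in NC and 836 and 1078 CPM in siAirn, where Apoa1 and Apob rose (2 of 9 tested) and Tat stayed under 0.1 CPM. The summed stellate and smooth muscle markers were 1279 and 1509 CPM in NC and 1439 and 1813 CPM in siAirn. These sums overlapped, although Acta2 and Reln rose (2 of 10). All 10 had a positive log2 fold change, with a median of 0.44, as did all 9 hepatocyte markers tested, with a median of 0.50. The median over all genes tested was 0.00. The macrophage markers summed to 226 and 275 CPM in NC and 176 and 144 CPM in siAirn, and 6 of 10 fell. In the fit reported these counts stand beside the 16.8% of all genes called, to which those of the hepatocyte and stellate lists (22.2% and 20%) were near. With the replicate block 4 of 9 hepatocyte, 7 of 10 stellate and 9 of 10 macrophage markers were called, against 4841 of all 13628 genes. Leaving out siAirn replicate 1 raised the number called in all 3 lists, and leaving out siAirn replicate 2 lowered it. With the correction for GC content and length 1 of these macrophage markers was called. Without NC replicate 1 none of these 3 lists had a call by edgeR (1, 2 and 10 genes at an unadjusted p for hepatocyte, stellate and macrophage markers), nor without NC replicate 2 (5, 5 and 4 genes). The methods name a bead selection for CD146, and how far it removed other cells from these libraries was not tested. The part of these cells in the Sptbn4, Sptbn1 and Ank3 values was not tested. The genes most like Ank3 over the 4 libraries, within 0.0078 to 0.018 in centred log2(CPM + 0.5), were Ptprk, Cxcl12, Col5a1, Mrvi1 and Ntn1. Cxcl12, a chemokine gene, had 714 and 808 CPM in NC and 934 and 1234 CPM in siAirn. Col5a1, a fibrillar collagen chain, had 62.5 and 70.6 CPM in NC and 82.2 and 107.6 CPM in siAirn.

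The partners of the lattice were taken as 7 lists of 65 genes, of which 53 were tested. Of these 53, 7 rose and 1 fell, or 15.1% against the 16.8% of all genes, and their median log2 fold change was 0.11 against 0.00 over all genes. Without NC replicate 1 or NC replicate 2, 0 of the 53 were called (15 and 12 at an unadjusted p by edgeR), and with GC content and length corrected 3 were. Over all genes that correction left 908 of 12948 called. In the fit reported the share of partner genes called was thus near that of all genes. The shares of the single lists given next, 20% to 27.3% where any gene was called, are to be read against the same 16.8%.

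The junctional complex caps and joins the actin filaments at the spectrin ends. Of its 11 tested genes 0 were called by edgeR, with 2 at an unadjusted p and 0 by DESeq2, and the median log2 fold change was -0.09. Epb41l2, of the protein 4.1 family that strengthens the spectrin-actin contact, had 398 CPM in NC and 403 CPM in siAirn (log2 fold change 0.02, SE 0.08). Add1, the alpha-adducin that caps filaments, had 201 and 182 CPM (-0.14, SE 0.06, adjusted p = 0.172). Of actin and the tropomyosins, 0 of 6 were called by edgeR, with 0 at an unadjusted p and 0 by DESeq2, and Actb (0.08, SE 0.08) and Actg1 (0.06, SE 0.06) had log2 fold changes close to 0.

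Of the membrane proteins that ankyrins hold, 2 of 10 tested rose, and the median was 0.47. Cd44, the hyaluronan receptor, had 137 CPM in NC and 226 CPM in siAirn (log2 fold change 0.73, SE 0.11, adjusted p = 0.0116). Itpr1, the inositol trisphosphate receptor that releases calcium from the endoplasmic reticulum, had 37.4 and 56.7 CPM (0.60, SE 0.08, adjusted p = 0.00787). Each had an adjusted p under 0.05 in 11 of 13 alternatives. Without NC replicate 1 or 2, where few genes or none were called, Cd44 was at 0.67 and 0.78 and Itpr1 at 0.64 and 0.55. With GC content and length corrected Cd44 was at 0.56 and Itpr1 at 0.35 (adjusted p = 0.0428 and 0.0311). Of the proteases that cut spectrin and their inhibitor, 1 of 5 changed: Capns1, the small calpain subunit, fell from 349 to 270 CPM (-0.37, SE 0.06, adjusted p = 0.0131), or by 0.14 with GC content and length corrected (adjusted p = 0.155).

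Among the other proteins built from spectrin repeats 3 of 11 rose, namely the guanine nucleotide exchange factor genes Trio (log2 fold change 0.54, SE 0.08, adjusted p = 0.0112) and Kalrn (0.48, SE 0.10, adjusted p = 0.0251) and the nuclear envelope linker Syne2 (0.37, SE 0.09, adjusted p = 0.0385). With GC content and length corrected Trio remained called at 0.36, while Kalrn stood at 0.16 (adjusted p = 0.306) and Syne2 at 0.21 (adjusted p = 0.172). Trio was called in 8 of 13 alternatives, Kalrn in 5 and Syne2 in 3. By limma on FPKM, 0 genes of this list were called (2 at an unadjusted p), and by DESeq2 there was 1. Of the other links between membrane and actin 2 of 9 rose: Flna, the filamin that crosslinks actin (0.40, SE 0.07, adjusted p = 0.0162), and Vcl, the vinculin of focal adhesions (0.43, SE 0.08, adjusted p = 0.0177). With the same correction they were at 0.26 and 0.27 (adjusted p = 0.0695 and 0.0809). The erythroid and the neuron and glia markers had 0 of 1 and 0 of 4 tested genes called by edgeR, with 0 and 2 at an unadjusted p and 0 each by DESeq2.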

How the data were processed

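RNA-seq of mouse LSECs in 4 libraries (2 NC, 2 siAirn) was read as single 50-base reads on a BGISEQ-500. The deposited table gives, per gene, the authors' estimated (expected) counts and FPKM. The submitters' processing notes name BWA, Bowtie2, RSEM and hg19, a human build for mouse cells, with no versions, and the annotation is not given in the sources used here. The FPKM unit was inferred from the values. 

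Expected counts, of which 76.5% to 76.8% per library were whole, were rounded and tested in edgeR 4.0.16 (R 4.3.3) with TMM scaling, filterByExpr (minimum count 10) and glmQLFTest without a replicate block. The fits were also tested on simulated data. 13628 of 18373 genes were tested, and a call is an adjusted p under 0.05. DESeq2 1.42.0, limma 3.58.1 on log2(FPKM + 1) or log2(FPKM + 0.1), other filters and scaling, corrections for length and GC content (splines with 5 df), a replicate block and leaving out each library were alternatives. CPM uses TMM-scaled totals. The implied length is the expected count divided by deposited FPKM and total count. Gene coordinates and models come from GENCODE M21 (GRCm38) by symbol, and promoters from RefSeq; the table itself gives no coordinates. Profile likeness was taken over genes with at least 1 CPM.

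The members and all gene lists were chosen with earlier results of these data known. Some genes of the lists are not reported here. Named genes were the members, Sptbn5, up to 4 called genes per partner list by adjusted p (or, with none called, the 2 most abundant), the 5 genes most like Sptbn4 and Ank3, and the neighbours of Sptbn4. Depth of 17308382 to 18371959 counts leaves a floor of 3 counts, or 0.166 to 0.175 CPM. Floors and the interval of Ank2 cover counting error only, while intervals of fold changes come from the edgeR fit and include the spread between libraries. With 2 libraries a group the spread is poorly known.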

Additional observations from a re-analysis of the deposited data

How the results depend on the processing

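Genes past an adjusted p of 0.05 numbered 2294 in the fit reported, 4841 with a replicate block, 1365 with the length correction and 908 with the GC and length correction, and 0 to 2410 when 1 library was left out. The 0 arose by edgeR without NC replicate 2, where 3106 genes had an unadjusted p under 0.05. For the partner lists the number was 8, and 5 by limma on either FPKM scale, 21 with the replicate block, 3 with the GC and length correction, and 0 to 12 with 1 library left out. Same-numbered libraries deviated together with r = 0.23 over 2 pairs. The labels do not say what a number stands for, and 2 pairs are too few to show that the numbers pair the libraries. With the replicate block Sptbn1 (0.20, adjusted p = 0.00819) and Ank3 (0.53, adjusted p = 0.00105) passed the test and Ank1 turned to 0.0071. Ank3 also passed with DESeq2 (0.53, adjusted p = 0.0460) and with at least 10 counts in every library (0.54, adjusted p = 0.0489) and without siAirn replicate 1 (0.72, adjusted p = 0.00288), and ranged from 0.31 to 0.72 with 1 library left out. Sptan1 turned to -0.20 with the length correction and -0.13 with GC and length, and ranged from -0.039 to 0.12 with 1 library left out, below 0 without siAirn replicate 1. Sptbn1 turned to -0.055 and -0.069 under the corrections, and ranged from 0.12 to 0.27 with 1 library left out. Ank1 ranged from -0.53 to 0.82 with 1 library left out. Sptbn4 ranged from 1.19 to 2.36. The mean Sptbn4 share of beta-spectrins, 5.26% in NC and 16.2% in siAirn, was 5.62% in NC per kilobase of the implied length, and 0.702% and 2.27% per kilobase of the longest transcript, an alternative that replaces the length of each of the 4 genes. The cause of the shifts was not tested. Depth limits Ank1, Ank2 and Sptb.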
